A study of Homo sapiens with 6 samples.

Results

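HSP90 chaperones and the cochaperones that serve them were followed in CAL-27 cells, a human tongue squamous carcinoma line, as 10 genes picked by name: the HSP90 genes HSP90AA1, HSP90AB1, HSP90B1 and TRAP1 and the cochaperone genes AHSA1, STIP1, CHORDC1, FKBP4, CDC37 and PTGES3. All 10 were found among the 16809 genes of the table, and all 10 passed the minimum of a mean of 1 TPM for testing. The study compared 3 untreated control libraries (CON) with 3 libraries of cells given elesclomol and copper at a ratio of 1 to 1 for 24 h (ESCU, written ES-Cu here), to follow the transcriptome during cuproptosis. Elesclomol is an ionophore that carries copper into cells, and cuproptosis is a form of cell death set off by copper. No dose is stated in the labels. All libraries came from this single line, with no genetic alteration named in the labels.

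HSP90 is an ATP-driven dimer that takes partly folded proteins, called clients, and brings them to an active or stable form. Protein kinases and steroid hormone receptors are among its best known clients. HSP90AA1 (the stress-inducible alpha form) and HSP90AB1 (the constitutive beta form) act in the cytosol, HSP90B1 (GRP94) in the endoplasmic reticulum and TRAP1 in mitochondria. Cochaperones set the pace of the cytosolic cycle. STIP1 (HOP) links HSP70 to HSP90, CDC37 brings kinases, AHSA1 speeds ATP hydrolysis, PTGES3 (p23) holds the closed ATP-bound form, FKBP4 is an immunophilin found on steroid receptor complexes, and CHORDC1 (morgana) binds HSP90 through CHORD and CS domains. Heat shock factor HSF1, itself a client, drives many of these genes from heat shock elements, which are inverted repeats of GAA units.

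Promoter windows of 300 bases, from 250 before to 50 after a start site, were found in the RefSeq table (GRCh38.p14) for 9 of the 10 genes, all but FKBP4, with 14 windows in all. They are shown as description only, and a link between their motifs and the changes in level was not tested. A 3-unit heat shock element (GAA, TTC, GAA or TTC, GAA, TTC, each unit parted from the next by 2 bases of any kind, either strand) was present in 3 of the 14 windows, in HSP90AA1, HSP90AB1 and CHORDC1. One was held by 0.490% of all 35116 RefSeq windows. The matches are printed below 5′ to 3′ on the strand of the gene, with the motif in capitals and positions counted from the start site of that window.
HSP90AA1, chr14:102087112-102087140 (minus strand), motif from -88 to -76: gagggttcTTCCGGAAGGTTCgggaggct
HSP90AB1, chr6:44247770-44247798 (plus strand), motif from -165 to -153: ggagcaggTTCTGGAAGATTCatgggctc
HSP90AB1, chr6:44247823-44247851 (plus strand), motif from -112 to -100: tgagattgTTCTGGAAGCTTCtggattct
CHORDC1, chr11:90223084-90223112 (minus strand), joined motifs from -60 to -38: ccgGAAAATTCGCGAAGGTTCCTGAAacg

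The CHORDC1 stretch held 3 overlapping 3-unit matches, the most of any window of the members. Both HSP90AB1 matches lay in the window of the most downstream of its 3 start sites, and there they fell in an intron of 3 of the 4 HSP90AB1 transcripts in GENCODE 29 and outside the other. The HSP90AA1 match fell outside 7 of 10 annotated transcripts, in an intron of 2 and in an untranslated exon stretch of 1. The CHORDC1 stretch fell outside 10 of 11 transcripts and in an untranslated exon stretch of 1. The looser 2-unit form (GAA and TTC or TTC and GAA at the same spacing, which also lies within each 3-unit match) was found in 4 members, these 3 and STIP1, and in 16.2% of the 27305 genes with a window (13.5% of windows). No 3-unit or 2-unit match lay in the windows of HSP90B1, TRAP1, AHSA1, CDC37 or PTGES3, which says nothing of elements elsewhere.

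The HSP90B1 window instead held the endoplasmic reticulum stress element (CCAAT, then 9 bases of any kind, then CCACG), a motif known from genes of the unfolded protein response, at 2 places. It was searched on both strands after the windows had been seen, and 0.0769% of all windows held it. No other member's window had a match. The second match is on the reverse strand. The first fell outside 10 of 11 annotated HSP90B1 transcripts and the second outside 8, and each lay in an untranslated exon stretch of the rest.
HSP90B1, chr12:103930211-103930239 (plus strand), motif from -194 to -176: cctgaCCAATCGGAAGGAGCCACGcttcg
HSP90B1, chr12:103930316-103930344 (plus strand), motif from -89 to -71: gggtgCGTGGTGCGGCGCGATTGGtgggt

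Across the transcriptome, 70.0% of the 11927 tested genes were called lower and 13.6% higher in ES-Cu on the deposited scale (limma on log2(TPM + 1), Benjamini-Hochberg adjusted p under 0.05), and the median gene stood at a log2 fold change of -0.50. TPM is a length-corrected share of transcripts with a fixed sum, so each gene was also read after median-of-ratios scaling, where the median gene is at 0.00, and after quantile normalization. The words rose and fell are kept for genes that all 3 scalings called with one sign, which 13.5% of tested genes did upward and 31.2% downward. Between 14959 and 15051 genes lay above 0 in each library, read depth is unknown, and the 20 highest genes of a library took 14.3 to 14.5% of TPM in control and 21.6 to 22.6% in ES-Cu. All 8 squamous epithelial markers were detected, with a summed level of 2521 to 2643 TPM in control and 2927 to 2977 TPM in ES-Cu, although KRT14 stayed at 2.93 to 5.16 TPM. Single markers moved apart, with SFN at 605 to 664 TPM in control and 1212 to 1247 TPM in ES-Cu, CDH1 at 171 to 176 and 68.1 to 74.0 TPM, and TP63 at 85.4 to 88.1 and 23.5 to 25.3 TPM. The summed levels of 4 fibroblast, 3 leukocyte and 3 endothelial markers were at most 11.5, 1.16 and 7.47 TPM, with the fibroblast and endothelial sums lower in ES-Cu (at most 5.14 and 1.87 TPM). Their part in the results was not tested. Separate cultures are not named in the labels, so the p-values rest on a spread between libraries that may be technical. In such bulk RNA, fewer cells expressing a gene and less RNA of it per cell cannot be told apart.

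Of the 10 genes, 8 were called higher and 2 lower on the deposited scale, against the 13.6% and 70.0% of all tested genes given above (83.7% in either direction). The members were chosen with earlier results of these data known, so these counts are description and not a test of the set. Both cytosolic HSP90 genes and all 6 cochaperones rose in all 3 scalings. The members that did not were those of the organelles, HSP90B1 and TRAP1, which were called lower on the deposited scale and after quantile normalization but stood near 0 and uncalled after median-of-ratios scaling, where 38.0% of all tested genes were called higher and 35.8% lower. Control and ES-Cu libraries did not overlap for any of the 10 genes, which was also so for 84.3% of all tested genes. The median log2 fold change of the 10 was 0.59 as deposited and 1.15 after median-of-ratios scaling. Of the 1082 genes whose mean over both groups reached that of the lowest member, FKBP4, 25.0% were called higher. That mean includes the ES-Cu libraries, so genes high there pass more easily. The share therefore does not show that abundant genes were called higher more often.

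**Figure D1:**
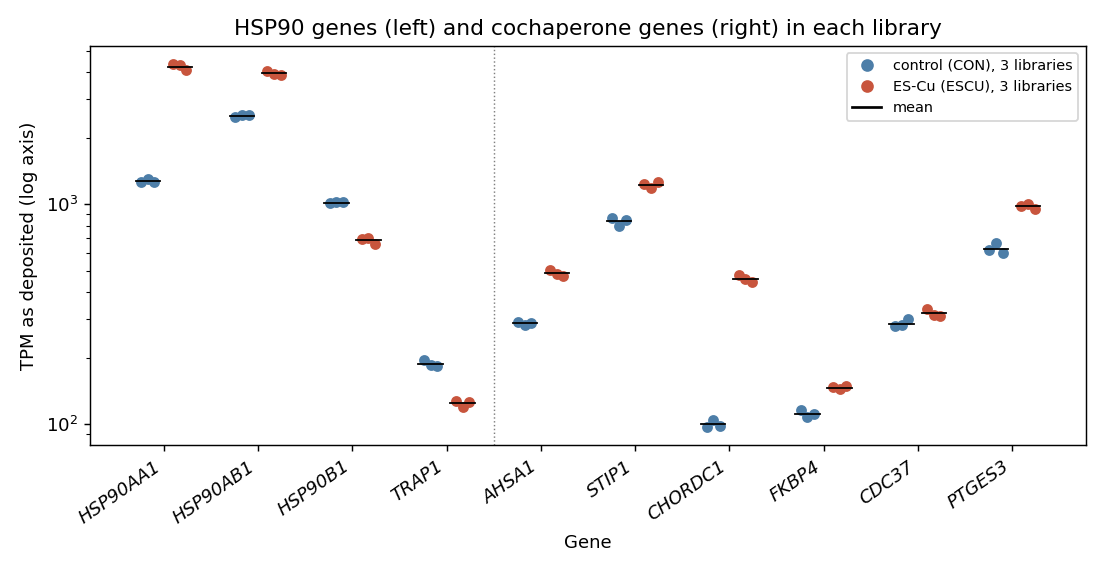
TPM of the 10 genes on a log axis, with one point per library, control in blue and ES-Cu in red, and a black line at each group mean. The cytosolic HSP90 genes and the cochaperones sit higher in ES-Cu, HSP90B1 and TRAP1 sit lower, and the gap is narrowest for CDC37.

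HSP90AA1, the inducible cytosolic form, was at 1260, 1299 and 1266 TPM in control, and 4346, 4296 and 4067 TPM were measured in ES-Cu. Every ES-Cu library thus lay far above every control library. It averaged 1275 ± 21.4 TPM over the control libraries and 4236 ± 149 TPM over the ES-Cu libraries (± SD, n = 3 per group, as below), and it rose 3.32-fold (log2 fold change 1.73, SE 0.037, adjusted p = 2.86e-11, limma). HSP90AA1 moved from rank 114 to 118 among all genes of a control library to rank 31 to 34 in ES-Cu, and 121 tested genes had a larger log2 fold change.

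HSP90AB1, the constitutive cytosolic form, was the highest of the 10 genes in control, at 2489, 2558 and 2551 TPM. In ES-Cu it was at 4035, 3900 and 3876 TPM, again above all control libraries. It rose 1.55-fold (log2 fold change 0.64, SE 0.034, adjusted p = 2.95e-08, limma). The rise was 1.19 on the log2 scale after median-of-ratios scaling and 0.58 after quantile normalization.

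The pair changed places in deposited TPM. The ratio of HSP90AA1 to HSP90AB1 was 0.506, 0.508 and 0.496 in the control libraries and 1.08, 1.10 and 1.05 in the ES-Cu libraries. By TPM, HSP90AA1 was thus the lesser of the pair in every control library and the greater, by a small margin, in every ES-Cu library. Which of the pair is greater rests on the length correction and on how shared reads were assigned, which is not known here. The order within ES-Cu is therefore less sure than the rise of the ratio. A ratio taken within a library does not depend on how that library is scaled by a factor. On the log2 scale it went from -0.99 ± 0.018 to 0.11 ± 0.035, a difference of 1.10 (two-sided exact permutation p = 0.1, which is the lowest value 3 against 3 libraries can give; adjusted p = 0.129 over the 9 ratios to HSP90AB1). HSP90AA1 made up 33.5% ± 0.279 of the cytosolic pair in control and 51.8% ± 0.608 in ES-Cu.

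HSP90B1, the endoplasmic reticulum form and a folding factor for integrins and Toll-like receptors, was at 1010, 1026 and 1020 TPM in control and at 699, 706 and 661 TPM in ES-Cu. All ES-Cu libraries lay below all control libraries on this scale. The log2 fold change was -0.57 (SE 0.037, adjusted p = 1.06e-07, limma), but after median-of-ratios scaling it was -0.0078 and the call was lost (adjusted p = 0.873, limma). On the deposited scale HSP90B1 therefore sat close to the median gene of -0.50, and 45.4% of tested genes had a lower log2 fold change. After quantile normalization HSP90B1 was at -0.56 (adjusted p = 2.44e-07, limma), below the median tested gene of -0.07.

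TRAP1, the mitochondrial form, was at 196, 185 and 185 TPM in control and at 128, 120 and 126 TPM in ES-Cu. The groups were again apart, with ES-Cu below. Its log2 fold change was -0.59 (SE 0.044, adjusted p = 2.58e-07, limma), and -0.039 after median-of-ratios scaling (adjusted p = 0.406, limma). After quantile normalization it was -0.40, where the median tested gene was at -0.07. TRAP1 went from above to below FKBP4 in the order of levels.

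**Figure D2:**
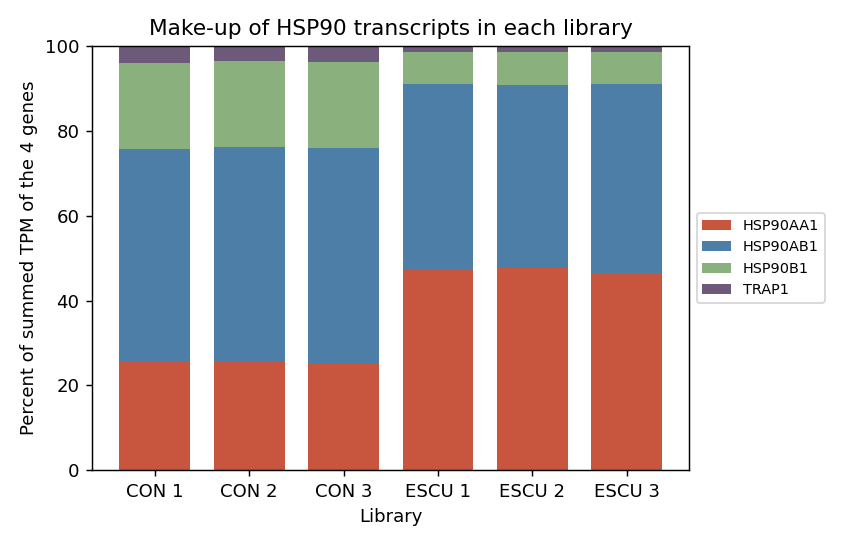
Share of the summed TPM of the 4 HSP90 genes held by each gene in each library, stacked to 100%. HSP90AA1 grows from 25.4% to 47.1% of the sum between control and ES-Cu, and HSP90B1 shrinks from 20.3% to 7.66%.

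Relative to the cytosolic forms, the organelle forms were lower whatever the scaling factor. HSP90B1 was at 0.406, 0.401 and 0.400 of HSP90AB1 in control and at 0.173, 0.181 and 0.170 in ES-Cu. TRAP1 was at 0.0788, 0.0724 and 0.0724 of HSP90AB1 in control and at 0.0318, 0.0308 and 0.0324 in ES-Cu. Neither set of ratios overlapped between the groups, and the log2 differences were -1.20 for HSP90B1 and -1.23 for TRAP1 (each exact permutation p = 0.1, adjusted p = 0.129 over the 9 ratios). A drop against HSP90AB1 was common, since 94.7% of all tested genes had a lower log2 fold change than HSP90AB1. The share of all genes with separate ratio ranges was not computed. Of the summed TPM of the 4 HSP90 genes, HSP90AB1 held 50.5% ± 0.283 in control and 43.8% ± 0.589 in ES-Cu, and TRAP1 held 3.76% ± 0.170 and 1.39% ± 0.0539.

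CHORDC1, a zinc-binding cochaperone, had the largest rise of the 10 genes. It was at 97.5, 105 and 97.9 TPM in control and at 478, 457 and 442 TPM in ES-Cu, a wide gap between tight groups. The change was 4.58-fold (log2 fold change 2.19, SE 0.045, adjusted p = 1.92e-11, limma), and 78 tested genes had a larger log2 fold change. The ratio of CHORDC1 to HSP90AB1 was 0.0384 to 0.0410 in control and 0.114 to 0.118 in ES-Cu, with no overlap (log2 difference 1.56, exact permutation p = 0.1, adjusted p = 0.129 over the 9 ratios). The lowest of the 10 in control, CHORDC1 came to overlap AHSA1 in ES-Cu, the pair standing at 459 ± 18.3 and 486 ± 16.5 TPM. At least 2-fold higher calls, which 2.69% of all tested genes had, were found for CHORDC1 and HSP90AA1 among the members.

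AHSA1, the activator of the HSP90 ATPase, was at 293, 282 and 287 TPM in control and at 503, 484 and 470 TPM in ES-Cu. It rose 1.69-fold (log2 fold change 0.76, SE 0.039, adjusted p = 1.98e-08, limma), the second largest rise among the cochaperones. Its ratio to HSP90AB1 was 0.110 to 0.118 in control and 0.121 to 0.125 in ES-Cu, higher in every ES-Cu library (log2 difference 0.12, exact permutation p = 0.1, adjusted p = 0.129 over the 9 ratios). In control it was level with CDC37 (287 ± 5.37 against 287 ± 11.1 TPM, ranges overlapping), while in ES-Cu it lay above CDC37 in every library.

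PTGES3 was at 619, 665 and 604 TPM in control and at 981, 1007 and 957 TPM in ES-Cu. It rose 1.56-fold (log2 fold change 0.64, SE 0.043, adjusted p = 1.21e-07, limma), a size next to that of HSP90AB1. The ratio of PTGES3 to HSP90AB1 was 0.237 to 0.260 in control and 0.243 to 0.258 in ES-Cu, so the groups overlapped (log2 difference 0.0054, exact permutation p = 1.00). This does not show that the pair moved alike, since 3 libraries a group allow no finer test.

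STIP1, the adaptor between HSP70 and HSP90, was the most abundant of the 6 cochaperones in both groups. It was at 866, 795 and 853 TPM in control and at 1233, 1184 and 1264 TPM in ES-Cu, with no overlap. It rose 1.47-fold (log2 fold change 0.55, SE 0.043, adjusted p = 3.79e-07, limma). Its ratio to HSP90AB1 was 0.311 to 0.348 in control and 0.304 to 0.326 in ES-Cu, and these ranges overlapped (log2 difference -0.085, exact permutation p = 0.2, adjusted p = 0.225 over the 9 ratios).

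FKBP4 was at 116, 108 and 112 TPM in control and at 147, 144 and 150 TPM in ES-Cu. It rose 1.31-fold (log2 fold change 0.39, SE 0.043, adjusted p = 5.72e-06, limma). Relative to HSP90AB1 it was lower in every ES-Cu library than in any control library, with a log2 difference of -0.24 (exact permutation p = 0.1, adjusted p = 0.129 over the 9 ratios). Such a drop is not particular to FKBP4, since 94.7% of all tested genes had a lower log2 fold change than HSP90AB1.

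CDC37, the kinase adaptor, had the smallest rise. It was at 279, 283 and 300 TPM in control and at 333, 313 and 312 TPM in ES-Cu, so the highest control and the lowest ES-Cu library differed by little. The change was 1.11-fold (log2 fold change 0.15, SE 0.043, adjusted p = 0.00631, limma). It was 0.71 after median-of-ratios scaling and 0.28 after quantile normalization. Relative to HSP90AB1, CDC37 was lower in ES-Cu by a log2 difference of -0.48, and the groups did not overlap (exact permutation p = 0.1, adjusted p = 0.129 over the 9 ratios). As 94.7% of all tested genes had a lower log2 fold change than HSP90AB1, this drop is not particular to CDC37 either. The share of all genes with separate ratio ranges was not computed.

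**Figure D3:**
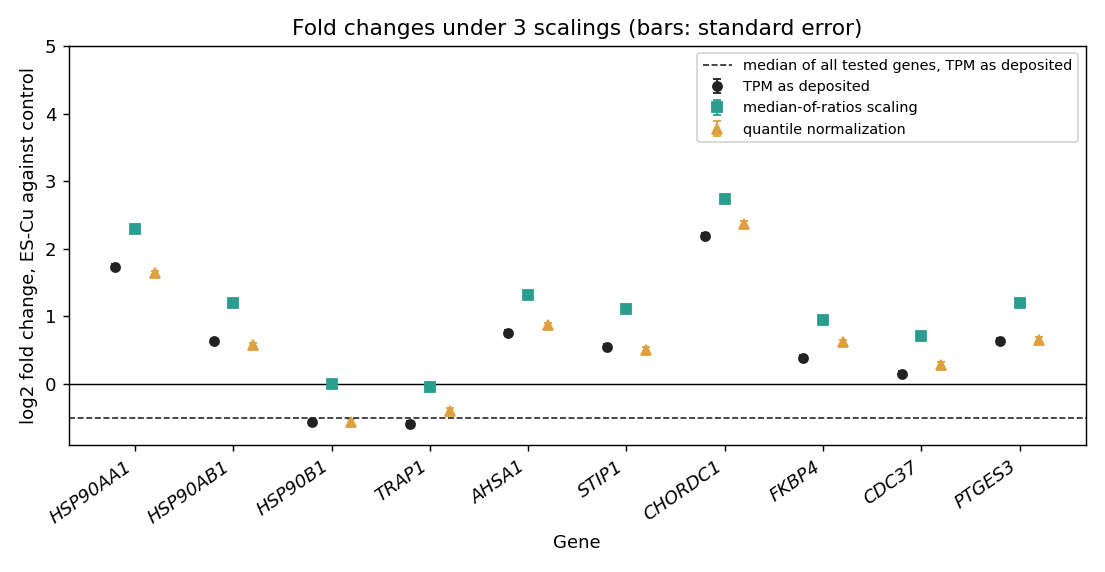
Log2 fold change of ES-Cu against control for each gene, as deposited (circles), after median-of-ratios scaling (squares) and after quantile normalization (triangles), with standard errors. The dashed line marks the median tested gene as deposited at -0.50. The circles of HSP90B1 and TRAP1 lie near it (-0.57 and -0.59), their squares lie near 0, and their triangles lie at -0.56 and -0.40. The other 8 genes stay above 0 in all 3 scalings.

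The summed cochaperone transcripts grew less than the summed cytosolic HSP90 transcripts, to which HSP90AA1 added most of the gain. Per 100 TPM of HSP90AA1 and HSP90AB1 together, the 6 cochaperones summed to 60.6, 58.0 and 59.0 TPM in the control libraries and to 43.9, 43.8 and 45.3 TPM in the ES-Cu libraries. The groups did not overlap (exact permutation p = 0.1, two-sided). Of the 6, 5 were lower on this measure in every ES-Cu library than in any control library, and CHORDC1 was the exception. The pair itself went from 0.381% to 0.817% of all TPM, and 2.69% of all tested genes were called at least 2-fold higher. Most genes would therefore be lower on this measure, and the share of all genes without overlap on it was not computed.

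STIP1 went from 22.0 ± 1.28 to 15.0 ± 0.784 TPM per 100 TPM of cytosolic HSP90, and PTGES3 from 16.5 ± 0.705 to 12.0 ± 0.290. CDC37 went from 7.54 ± 0.277 to 3.91 ± 0.0781, the widest drop in proportion. AHSA1 went from 7.55 ± 0.250 to 5.94 ± 0.0538 and FKBP4 from 2.94 ± 0.144 to 1.80 ± 0.0731. CHORDC1 moved the other way, from 2.63 ± 0.0798 to 5.61 ± 0.0791, and its part of the summed cochaperone TPM grew from 4.44% ± 0.213 to 12.7% ± 0.363. These ratios were formed after the fold changes were known and describe transcripts, not protein.

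**Figure D4:**
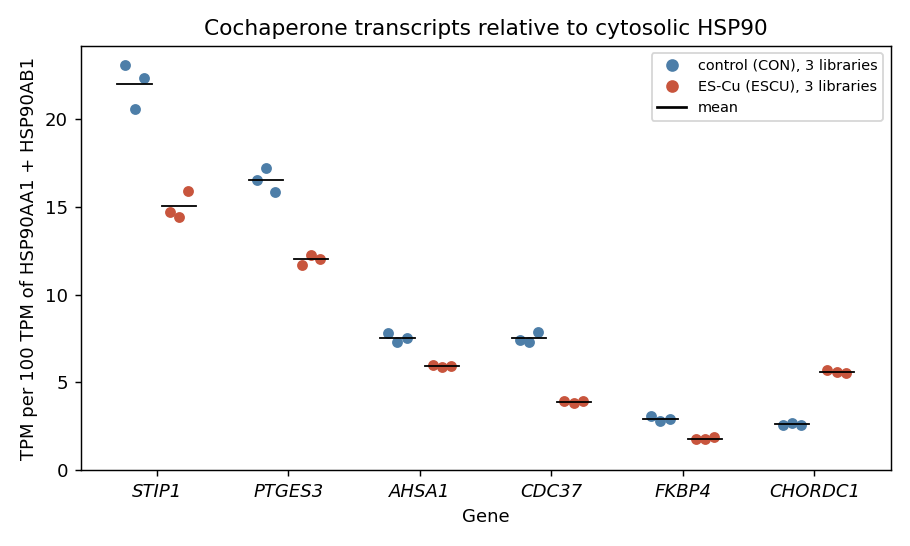
TPM of each cochaperone per 100 TPM of HSP90AA1 and HSP90AB1 in each library, control in blue and ES-Cu in red, with lines at the means. STIP1, PTGES3, AHSA1, CDC37 and FKBP4 sit lower in ES-Cu, and CHORDC1 sits higher, at 5.61 against 2.63.

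Together the 10 genes held 0.722%, 0.731% and 0.727% of all TPM in the control libraries and 1.29%, 1.26% and 1.23% in the ES-Cu libraries. The difference of 0.534 percentage points was larger than the spread within either group (SD 0.0041 in control, SD 0.028 in ES-Cu; two-sided exact permutation p = 0.1). HSP90AA1 and HSP90AB1 accounted for most of it, from 0.381% ± 0.0055 to 0.817% ± 0.022 of TPM. The 6 cochaperones went from 0.225% ± 0.0017 to 0.362% ± 0.0049.

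The order of levels in control was HSP90AB1, HSP90AA1, HSP90B1, STIP1, PTGES3, AHSA1, CDC37, TRAP1, FKBP4 and CHORDC1. Neighbours in that order had separate ranges over the 3 libraries except AHSA1 and CDC37. In ES-Cu the order was HSP90AA1, HSP90AB1, STIP1, PTGES3, HSP90B1, AHSA1, CHORDC1, CDC37, FKBP4 and TRAP1, with AHSA1 and CHORDC1 as the overlapping neighbours. HSP90B1 thus passed from above to below STIP1 and PTGES3.

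Other genes listed as HSP90 cochaperones moved in both directions. Of 38 tested, 10 were called higher and 21 lower on the deposited scale (13.6% and 70.0% of all tested genes), and 10 rose and 11 fell in all 3 scalings (13.5% and 31.2%), with a median log2 fold change of -0.39 beside -0.50 for all tested genes. ITGB1BP1, among the 21, is not a known cochaperone and was kept because the list was fixed with it. FNIP1, a folliculin partner that slows the HSP90 ATPase, rose from 16.9 ± 1.80 to 32.2 ± 4.43 TPM. CACYBP rose from 110 ± 5.66 to 184 ± 12.2 TPM. STUB1 (CHIP), the ubiquitin ligase that marks clients for degradation, fell from 115 ± 4.22 to 59.4 ± 5.75 TPM, and TTC9C fell from 36.6 ± 2.91 to 17.1 ± 1.97 TPM.

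Genes of HSP90 clients were called in shares near those of all tested genes. Of 45 tested, 5 were called higher and 32 lower (13.6% and 70.0% of all tested genes), and 5 rose and 13 fell in all 3 scalings (13.5% and 31.2%), with a median log2 fold change of -0.44 beside -0.50. The receptor kinase genes ERBB2 and ERBB3, whose products depend on HSP90 for stability or maturation, fell from 29.0 ± 1.19 to 9.68 ± 0.279 TPM and from 20.5 ± 0.484 to 6.21 ± 1.04 TPM. The ephrin receptor gene EPHA2 rose from 67.8 ± 5.70 to 212 ± 6.67 TPM, and AGO2, an Argonaute protein loaded with small RNA by HSP90, rose from 10.1 ± 0.300 to 15.2 ± 1.77 TPM.

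Most genes of the HSP70 system, which hands clients to HSP90, rose. Of 19 tested, 14 were called higher and 2 lower (13.6% and 70.0% of all tested genes), and 14 rose and 1 fell in all 3 scalings (13.5% and 31.2%), with a median log2 fold change of 0.81. This list, too, was chosen with earlier results of these data known, so its counts are description only. HSPA6 and HSPA1A had the largest rises (log2 fold changes 10.22 and 5.88), from 1.02 to 2406 TPM and from 310 to 18265 TPM on average. HSPA1B, of the same family, rose from 394 to 15006 TPM on average (log2 fold change 5.25). The uniqueness of short reads was not checked for HSPA1A and HSPA1B, so the split of reads between them is uncertain. HSPA6 in control was near the pseudocount of 1 TPM, so the size of its fold change depends on that pseudocount. The gene that fell was STUB1, which is also counted among the cochaperones, as is ST13. In the endoplasmic reticulum around HSP90B1, 4 of 21 chaperone genes rose and 6 fell in all 3 scalings (4 called higher and 15 lower as deposited, median -0.40), where all tested genes gave 13.5% and 31.2% in all 3 scalings and 13.6% and 70.0% as deposited. The HSP70 of that compartment, HSPA5 (BiP), rose from 1080 ± 15.0 to 1812 ± 75.4 TPM while HSP90B1 did not, and DNAJB9 rose as well (log2 fold change 1.71). PDIA4 (-1.10) and SDF2L1 (-1.08) fell.

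Of 17 mitochondrial chaperone and protease genes beside TRAP1, 6 rose and 5 fell in all 3 scalings (6 called higher and 10 lower as deposited, median -0.18), beside the same 13.5% and 31.2%, and 13.6% and 70.0%, of all tested genes. The cyclophilin gene PPIF, whose product TRAP1 is known to bind, rose from 134 ± 4.36 to 304 ± 6.68 TPM, and the nucleotide exchange factor GRPEL2 rose from 8.84 ± 0.907 to 18.1 ± 1.29 TPM. The import motor gene DNAJC19 (-1.06) and the protease gene CLPP (-0.79) fell.

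The tested genes nearest in profile were found by Euclidean distance over the 6 libraries in log2(TPM + 1) less the control mean. For HSP90AA1 they were DNAJA1, an HSP40 cochaperone (distance 0.082), ZNF267 (0.085) and INHBA (0.086). For HSP90AB1 they were PPP2CA (0.042), EHF (0.051) and PSMD1 (0.054), for HSP90B1 SMARCA5 (0.041), POLR2D (0.046) and HNRNPL (0.048), and for TRAP1 NLK (0.034), TBL3 (0.051) and CPSF1 (0.055). With 2 groups such a distance reflects mainly the size of the change.

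HSP90 genes have processed pseudogenes, so the uniqueness of short reads was checked on GENCODE 29 transcripts. Of all 50-base windows of the longest coding transcript, 17.5% in HSP90AA1, 18.8% in HSP90AB1, 11.9% in PTGES3 and 8.12% in HSP90B1 occurred exactly in a transcript of another gene, against 0.00 to 3.57% in the other 6 genes. None of those other genes was a row of the deposited table, and no such window was shared between HSP90AA1 and HSP90AB1. How the quantification treated such reads is not given in the sources used here, so the levels of HSP90AA1, HSP90AB1, PTGES3 and HSP90B1 carry that uncertainty.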

How the data were processed

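Single-end reads of 50 bases were made from total RNA on a BGISEQ-500, per the labels' protocols. The deposited values are TPM, scaled by the authors to a fixed sum per library over the listed genes. The submitters' processing notes list HISAT, Bowtie2 and GRCm38.p6, a mouse build, although the genes of the table are human. Quantification tool and annotation are not given in the sources used here. TPM keeps no read totals, so no counting interval was computed. In limma 3.58.1 (R 4.3.3), the 11927 genes whose mean reached 1 TPM were fitted as log2(TPM + 1) and tested two-sided by moderated statistics with a variance trend (Benjamini-Hochberg over these genes, threshold 0.05), 3 ES-Cu against 3 control libraries without a block. Of the code, only the limma fit without further scaling was tested on simulated data. Within-library ratios and shares were compared with exact permutation tests (scipy 1.17.1).

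The members, the lists and the naming rule were chosen with earlier results of these data known. The rule named all 10 members, the 3 nearest genes of each HSP90 gene and up to 2 higher and 2 lower genes per list, among those with one sign in all 3 scalings and at least 5 TPM in a group. A list of 17 pseudogene and paralogue names had 1 tested row, CDC37L1, which was not called (log2 fold change -0.046). Alternatives were other scalings, other pseudocounts (0.1, 0.5), a 5 TPM filter or none, no trend, a replicate block and the removal of single libraries.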

Additional observations from a re-analysis of the deposited data

How the results depend on the processing

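The 8 higher and 2 lower calls among the members were the same under every alternative run except median-of-ratios scaling, where 8 were higher and 0 lower. Without that scaling, all 13 alternatives kept each member's direction and call. CDC37 came closest to the threshold (adjusted p = 0.0403 in limma without the trend; log2 fold changes 0.12 to 0.28). Among all tested genes, median-of-ratios scaling gave 4532 higher and 4266 lower calls and quantile normalization 3749 and 4756, against 1628 and 8351 as deposited. The HSP90AA1 to HSP90AB1 difference of 1.10 was 1.06 under quantile normalization, and the members' gain in share of TPM, 0.534 percentage points, was 0.780 over a total without the 20 highest other genes. Leaving out single libraries moved no call of a member.

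A fit with a replicate block gave 8 higher and 2 lower members and 1614 higher and 8343 lower genes, and the paired difference of the HSP90AA1 to HSP90AB1 ratio was 1.10. Deviations from the group means correlated at 0.021, -0.034 and 0.011 between libraries of the same number, so the numbers were not taken to pair the libraries. Depth limits are unknown with TPM, and 3 libraries a group cannot give an exact p below 0.1.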
